A study of Mus musculus with 15 samples.

Results

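The 10 genes described here are mouse genes that macrophages express: Lyz2, Cd68, Adgre1, Csf1r, Cd14, Tyrobp, Fcer1g, Mrc1, Trem2 and Laptm5. They were found among the 54532 genes of the deposited table by the Ensembl identifier that GENCODE M21, the mouse annotation on GRCm38, gives to each symbol, and all 10 were present. One kidney from each of 15 male C57BL/6 mice was sequenced, 5 per group, and the mice were 8 weeks old on arrival. The control group (C) ate adenine-free chow, the CKD model group (M) ate chow with 0.25% adenine for 4 weeks, and the AA group ate the adenine chow and was gavaged daily with 30 mg/kg of asiatic acid (AA), a triterpenoid of Centella asiatica, through week 8. Mice of C and M were gavaged with the vehicle, 1% DMSO in saline, and all 3 groups ate standard chow from week 5 until they were killed after week 8. The kidneys were sequenced whole, so that fewer macrophages and less RNA per macrophage cannot be told apart. Values are FPKM, read numbers corrected for gene length and library size, as deposited.

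Macrophages of the kidney are partly resident cells laid down before birth and partly descendants of blood monocytes that enter injured tissue. Their survival depends on the receptor Csf1r and its ligands Csf1 and Il34. Many of their other receptors have no signalling tail and pair with the adaptors Tyrobp or Fcer1g, which carry the ITAM motif that recruits the kinase Syk. Lyz2, Cd68 and Laptm5 belong to the lysosome or its contents, where ingested material is broken down. None of the 10 is limited to macrophages: neutrophils make Lyz2, NK cells Tyrobp, mast cells Fcer1g and some endothelial cells Mrc1.

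Promoter sequences from RefSeq (GRCm38.p6) were given for 6 of the 10 genes, Lyz2, Cd68, Fcer1g, Mrc1, Trem2 and Laptm5, and not for Adgre1, Csf1r, Cd14 and Tyrobp. PU.1 (Spi1) is the ETS-family factor that directs the macrophage lineage, and its core letters GAGGAA were searched on both strands from 250 bases before to 50 bases after each start. They stood in 4 of the 6 (Cd68, Laptm5, Mrc1 and Trem2) and in 28.3% of all 32851 promoters of that length. The longer form GAGGAAGT stood in 0 of the 6 and in 3.20% of all. The C/EBP letters TTGCNNAA stood in 2 of the 6 and in 10.8% of all, and the AP-1 letters TGANTCA in 2 of the 6 and in 7.81% of all. Both motifs were in the Cd68 and Trem2 windows, and neither overlaps the PU.1 core letters. The bases upstream of both the RefSeq and the GENCODE start are shown for Lyz2 (chr10:117282322-117282522, minus strand) and Fcer1g (chr1:171234366-171234599, minus strand), the members that passed the test in M vs. C, and for Cd68 (chr11:69666171-69666420, minus strand) and Trem2 (chr17:48346151-48346400, plus strand), which held all 3 of the shorter motifs. They read 5′ to 3′ on the strand of the gene, and capitals mark the PU.1 core on either strand (TTCCTC is GAGGAA read from the other strand).
Lyz2: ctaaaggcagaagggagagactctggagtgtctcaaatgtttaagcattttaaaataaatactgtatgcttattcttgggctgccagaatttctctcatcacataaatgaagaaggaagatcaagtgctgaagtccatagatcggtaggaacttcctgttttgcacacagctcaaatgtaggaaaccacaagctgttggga
Fcer1g: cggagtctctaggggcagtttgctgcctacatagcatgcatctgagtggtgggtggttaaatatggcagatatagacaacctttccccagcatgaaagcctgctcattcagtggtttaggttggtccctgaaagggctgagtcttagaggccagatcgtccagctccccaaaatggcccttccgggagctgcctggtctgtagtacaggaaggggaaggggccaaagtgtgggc
Cd68: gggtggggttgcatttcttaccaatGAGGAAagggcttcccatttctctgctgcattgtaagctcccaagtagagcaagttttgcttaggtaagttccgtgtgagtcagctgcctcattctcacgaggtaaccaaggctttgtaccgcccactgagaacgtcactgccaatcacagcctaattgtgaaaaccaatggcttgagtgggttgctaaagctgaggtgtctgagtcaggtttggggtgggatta
Trem2: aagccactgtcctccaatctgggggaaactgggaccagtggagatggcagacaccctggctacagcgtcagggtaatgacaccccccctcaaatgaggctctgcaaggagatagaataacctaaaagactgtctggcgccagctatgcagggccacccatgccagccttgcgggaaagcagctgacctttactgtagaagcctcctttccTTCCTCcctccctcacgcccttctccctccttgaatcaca
The Lyz2 and Fcer1g stretches hold no capitals, which says only that these letters are not in these windows.

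Libraries differed in ways that touch the results below. M mice 1 to 3 had FPKM above 0 for 10068 to 12222 genes, and the other 12 libraries for 18695 to 25460. The number of reads behind each value was recovered from the steps between FPKM values, and reads outside the mitochondrially encoded genes numbered 6951352 to 13576620 in C, 2077644 to 2770068 in M mice 1 to 3, 6488512 and 7142900 in M mice 4 and 5, and 2225755 to 4271183 in AA. Genes with 10 reads or fewer made up 6.79% to 7.47% of the detected genes in M mice 1 to 3 and 12.0% to 22.8% in the other libraries, so that M mice 1 to 3 lacked genes of low level. Gapdh, a glycolysis gene that every cell uses, was listed at 0 in M mouse 1 and in AA mice 1 and 2. A 0 is therefore given below as a listed value. The FPKM of Gapdh was 2.63 to 12.9 in C, 0 to 7.21 in M and at most 0.0967 in AA. It was called lower in AA vs. C (−2.57 ± 0.33; limma, adjusted p = 0.000333). Of the 10 macrophage genes, Adgre1 and Trem2 were listed at 0 in C mouse 2 and Cd68 in AA mouse 1, and every other value was above 0. The summed FPKM of 15 proximal tubule markers was 3235 to 13502 in C, 117 to 615 in M and 249 to 639 in AA. Of these markers 8 of 15 were called lower in M than in C (1.11% of all genes), and 10 of 15 lower in AA than in C (9.61%).

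**Figure D1:**
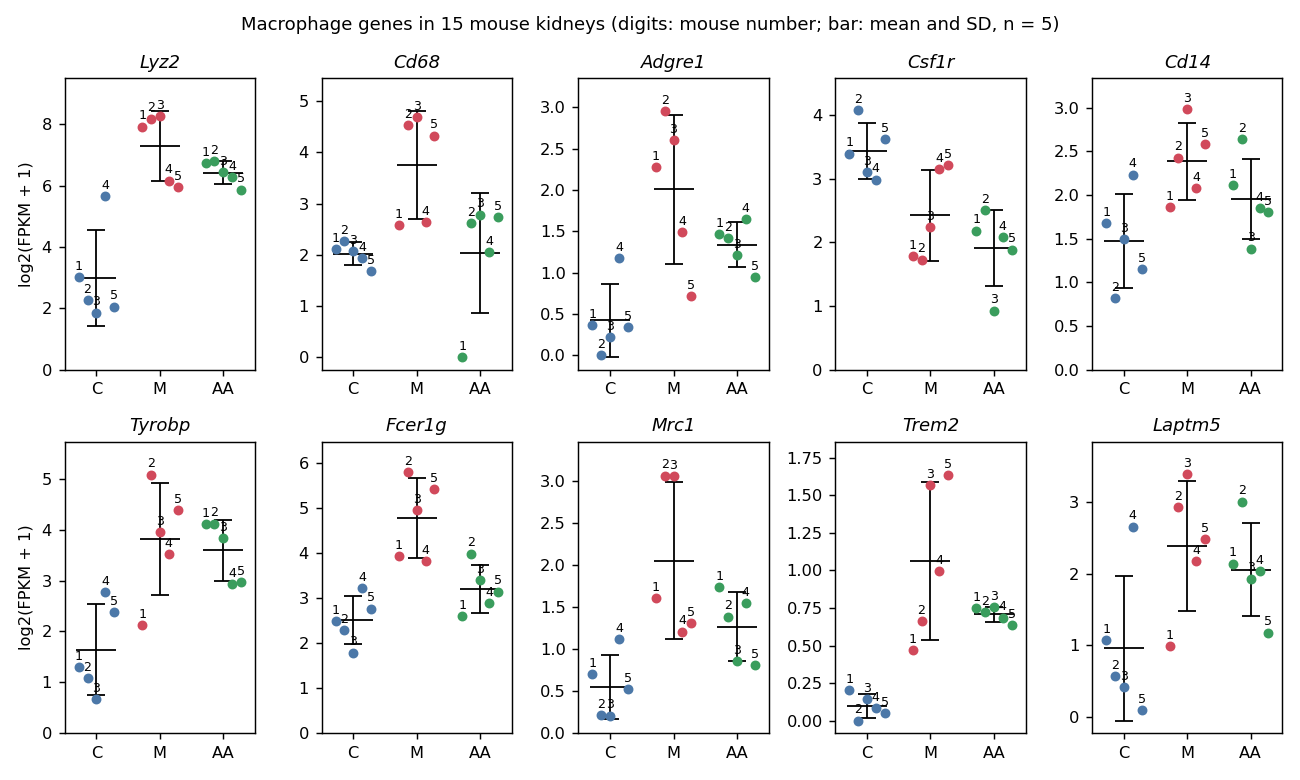
Each panel plots 1 macrophage gene as log2(FPKM + 1) in the 5 kidneys of C, M and AA. Digits are mouse numbers, and bars give the mean and SD (n = 5). Csf1r is highest in C, while Lyz2, Fcer1g, Cd68, Mrc1 and Trem2 are higher in every M kidney than in every C kidney. For Lyz2, Adgre1 and Mrc1, M mice 4 and 5 lie below M mice 1 to 3.

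Kidneys of M held more of most of these transcripts than kidneys of C. With limma on log2(FPKM + 1) over all genes, 9 of the 10 had a log2 fold change above 0 in M vs. C, and the exception was Csf1r, under every scaling tried as well. Calls needed an adjusted p no higher than 0.05 (Benjamini-Hochberg) and an absolute log2 fold change no lower than 1. Lyz2 and Fcer1g were called higher, 2 of the 10, while 0.269% of the 21153 genes tested were called higher and 1.11% lower. In 5 members (Lyz2, Cd68, Fcer1g, Mrc1 and Trem2) every M kidney lay above every C kidney, as in 1.05% of all genes, and in 0 members every M kidney lay below, as in 3.67% of all genes. The median log2 fold change was 1.54 over the members and −0.12 over all genes.

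Kidneys of AA lay between C and M for most members. All 10 had a log2 fold change below 0 in AA vs. M, with a median of −0.59 against 0.17 over all genes, and Fcer1g was called lower. That is 1 of 10, where 1.07% of 19798 genes were called lower and 11.7% higher. No member had groups that did not overlap in AA vs. M, compared with 1.31% of all genes lower and 11.9% higher. Against C, Lyz2 and Tyrobp were called higher and Csf1r lower, where 10.2% of 21898 genes were called higher and 9.61% lower. Every AA kidney lay above every C kidney for Lyz2, Tyrobp and Trem2 (11.5% of all genes) and below for Csf1r (12.5% of all genes). The median log2 fold change was 0.70 over the members and 0.09 over all genes. The comparisons share groups, since C serves as the control in both tests against it and M stands in both tests that use it.

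**Figure D2:**
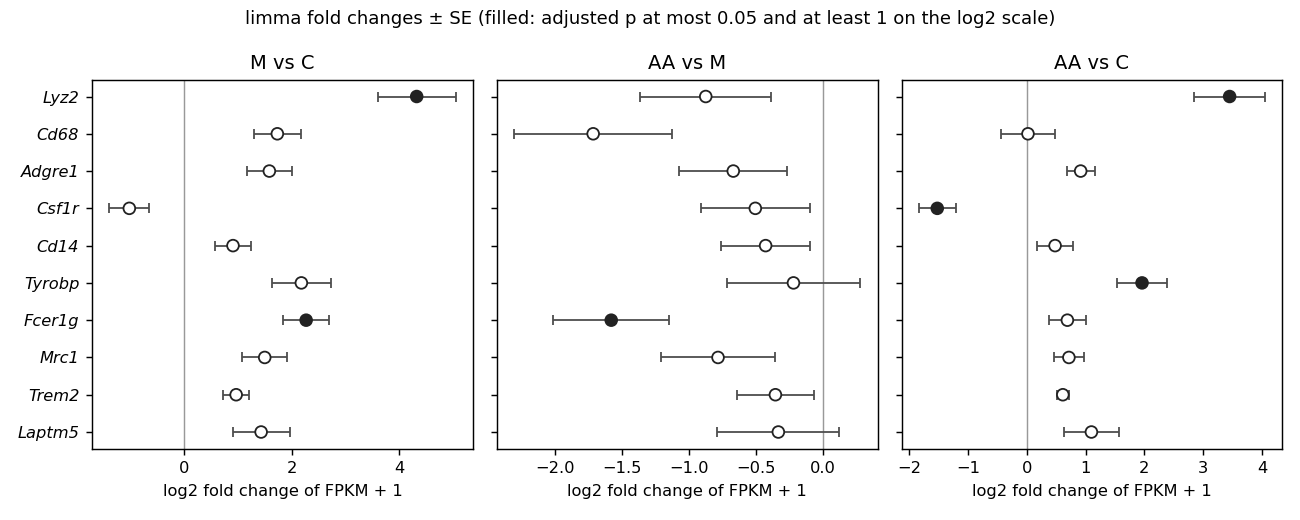
Points give the limma log2 fold change of FPKM + 1 for each member in the 3 comparisons, with bars of 1 SE (5 kidneys per group). Filled points were called. Lyz2 and Fcer1g are filled in M vs. C, Fcer1g in AA vs. M, and Lyz2, Tyrobp and Csf1r in AA vs. C.

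Lyz2, lysozyme M, breaks bacterial cell walls and was the most abundant member in M and AA. It lies on chr10:117277331-117282321, minus strand. Lyz2 had FPKM values of 7.12, 3.78, 2.63, 49.6 and 3.16 in C mice 1 to 5. M mice gave 241, 289, 307, 70.7 and 60.5, in the same order, and AA mice gave 106, 109.5, 85.0, 76.3 and 57.4. C mouse 4 stood far above the other C kidneys yet below every M and AA kidney, and M mice 4 and 5 lay within the AA range. The group means were 13.3 ± 20.4, 193.6 ± 119 and 86.9 ± 21.6 in C, M and AA (SD, n = 5). Lyz2 had a log2 fold change of 4.32 ± 0.72 in M vs. C (SE; limma, adjusted p = 0.019), −0.87 ± 0.49 in AA vs. M (adjusted p = 0.237) and 3.45 ± 0.60 in AA vs. C (adjusted p = 0.00169). The M vs. C call was lost without C mouse 5 (adjusted p = 0.0679), M mouse 1 (0.0508), M mouse 2 (0.0602) or M mouse 3 (0.069), at changes of 4.08 to 4.17. Lyz1, the neighbouring paralog, holds 32.8% of the 31-base words of the Lyz2 transcripts, so that reads could be split between them, and its FPKM was at most 0.702 in C, 0.837 to 15.1 in M and at most 0.988 in AA. Lyz1 was called lower in AA vs. M (−1.69 ± 0.49; limma, adjusted p = 0.0308) and in no other comparison.

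Cd68, a heavily glycosylated protein of the lysosome membrane, lies on chr11:69664213-69666153, minus strand. Cd68 had FPKM values of 3.34, 3.84, 3.22, 2.82 and 2.21 in C mice 1 to 5. M mice gave 5.00, 22.1, 24.7, 5.235 and 19.1, in the same order, and AA mice gave 0, 5.12, 5.88, 3.17 and 5.68. The M kidneys fell into a pair just above the C range (M mice 1 and 4) and 3 kidneys well above it (M mice 2, 3 and 5). Genes detected numbered 11551 and 23040 in the pair and 10068, 12222 and 25460 in the other 3. The part of this in the Cd68 values was not tested. Cd68 had a log2 fold change of 1.73 ± 0.44 in M vs. C (SE; limma, adjusted p = 0.0759) and −1.71 ± 0.59 in AA vs. M (adjusted p = 0.0587), and neither was called. Without AA mouse 1, which listed Cd68 at 0, the AA vs. M change was −1.20 (limma, adjusted p = 0.121). Against C it was 0.02 ± 0.46 with AA mouse 1 included (limma, adjusted p = 0.974).

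Laptm5, a lysosomal membrane protein of blood cells that directs receptors to degradation, lies on chr4:130913125-130936141, plus strand. Laptm5 had FPKM values of 1.10, 0.479, 0.334, 5.32 and 0.0631 in C mice 1 to 5. M mice gave 0.978, 6.62, 9.49, 3.52 and 4.61, in the same order, and AA mice gave 3.41, 7.05, 2.81, 3.10 and 1.26. C mouse 4 again stood above the other C kidneys, M mouse 1 was inside the C range, and all 3 groups overlapped. Laptm5 had a log2 fold change of 1.43 ± 0.53 in M vs. C (SE; limma, adjusted p = 0.206), −0.33 ± 0.45 in AA vs. M (adjusted p = 0.654) and 1.10 ± 0.46 in AA vs. C (adjusted p = 0.0806). Without C mouse 4 the AA vs. C change was 1.52 and was called (limma, adjusted p = 0.00735), and without AA mouse 5 it was 1.32 and was called (adjusted p = 0.0477).

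Fcer1g, the gamma chain through which Fc receptors and several lectin receptors signal, was the only member called in both M vs. C and AA vs. M. It lies on chr1:171229572-171234365, minus strand. Fcer1g had FPKM values of 4.60, 3.90, 2.45, 8.35 and 5.78 in C mice 1 to 5. M mice gave 14.2, 54.4, 29.8, 13.1 and 41.8, in the same order, and AA mice gave 5.04, 14.8, 9.53, 6.39 and 7.82. Every M kidney was above every C kidney, and of the AA kidneys AA mouse 2 alone reached into the M range. The group means were 5.01 ± 2.22, 30.7 ± 17.8 and 8.72 ± 3.81 in C, M and AA (SD, n = 5). Fcer1g had a log2 fold change of 2.27 ± 0.43 in M vs. C (SE; limma, adjusted p = 0.0275), −1.58 ± 0.43 in AA vs. M (adjusted p = 0.0232) and 0.69 ± 0.32 in AA vs. C (adjusted p = 0.106). The M vs. C call was lost without C mouse 2 (adjusted p = 0.0672), C mouse 5 (0.0747), M mouse 2 (0.0656) or M mouse 3 (0.0871). It was also lost without a filter on low values (0.0723), with library quality weights (0.0524), with the mouse number as a block (0.0577) and with columns scaled to equal totals, where the change was 1.42 (0.0888). The AA vs. M call was lost without M mouse 2 (0.0566), M mouse 3 (0.0563) or AA mouse 1 (0.0539), and with columns scaled to equal totals (0.0831).

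Tyrobp, known as DAP12, is the ITAM adaptor of Trem2 and related receptors and lies on chr7:30413760-30417585, plus strand. Tyrobp had FPKM values of 1.45, 1.12, 0.587, 5.85 and 4.21 in C mice 1 to 5. M mice gave 3.36, 33.1, 14.6, 10.5 and 20.1, in the same order, and AA mice gave 16.3, 16.5, 13.4, 6.63 and 6.89. M mouse 1 lay inside the C range, the other M kidneys lay above it, and all 5 AA kidneys lay above it as well. Tyrobp had a log2 fold change of 2.18 ± 0.55 in M vs. C (SE; limma, adjusted p = 0.0752) and 1.96 ± 0.42 in AA vs. C (adjusted p = 0.00455). Between AA and M it was −0.22 ± 0.50 (limma, adjusted p = 0.802), and it changed sign to 0.10 without M mouse 2. The adaptors Tyrobp and Fcer1g therefore gave different values in AA vs. M, and the difference between the 2 genes was not tested.

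Trem2, a receptor for lipids, lipoproteins and cell debris that needs Tyrobp, had the lowest median FPKM of the 10 in every group. It lies on chr17:48346401-48354147, plus strand. Trem2 had FPKM values of 0.151, 0, 0.103, 0.0597 and 0.0363 in C mice 1 to 5. M mice gave 0.383, 0.580, 1.97, 0.993 and 2.11, in the same order, and AA mice gave 0.683, 0.650, 0.687, 0.609 and 0.552. The AA kidneys varied little (0.636 ± 0.0564, SD, n = 5) and lay above every C kidney, and the M kidneys lay on both sides of them. These values rest on 0 to 34 reads in C, 22 to 326 in M and 29 to 62 in AA. Trem2 had a log2 fold change of 0.97 ± 0.24 in M vs. C (SE; limma, adjusted p = 0.0748), −0.36 ± 0.29 in AA vs. M (adjusted p = 0.421) and 0.61 ± 0.10 in AA vs. C (adjusted p = 0.00101), the last under the fold threshold. At levels below 1 the pseudocount of 1 holds the fold down: with a pseudocount of 0.1 the AA vs. C change was 2.18 and was called (limma, adjusted p = 0.00191).

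Mrc1, the mannose receptor CD206 that takes up glycoproteins and is used as a marker of resident and alternatively activated macrophages, lies on chr2:14229392-14332057, plus strand. Mrc1 had FPKM values of 0.630, 0.156, 0.154, 1.17 and 0.436 in C mice 1 to 5. M mice gave 2.06, 7.41, 7.36, 1.31 and 1.48, in the same order, and AA mice gave 2.34, 1.62, 0.816, 1.93 and 0.751. M mice 2 and 3 stood far above every other kidney, and M mice 1, 4 and 5 lay inside the AA range. Mrc1 had a log2 fold change of 1.50 ± 0.42 in M vs. C (SE; limma, adjusted p = 0.103), −0.78 ± 0.43 in AA vs. M (adjusted p = 0.224) and 0.72 ± 0.25 in AA vs. C (adjusted p = 0.0427), the last under the fold threshold.

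Adgre1, which encodes the adhesion receptor F4/80 by which mouse macrophages are commonly stained, lies on chr17:57358691-57483527, plus strand. FPKM ranged from 0 to 1.26 in C, with 1.26 in C mouse 4 and at most 0.288 in the other C kidneys. It ranged from 0.643 to 6.74 in M and from 0.921 to 2.13 in AA. M mice 1 to 3 (3.83, 6.74 and 5.09) lay above every AA kidney, and M mice 4 and 5 (1.81 and 0.643) did not. Adgre1 had a log2 fold change of 1.59 ± 0.42 in M vs. C (SE; limma, adjusted p = 0.084), −0.67 ± 0.40 in AA vs. M (adjusted p = 0.273) and 0.92 ± 0.24 in AA vs. C (adjusted p = 0.0115), the last under the fold threshold. Without C mouse 4 or without AA mouse 5 the AA vs. C change was called, at 1.11 (limma, adjusted p = 0.00288) and 1.02 (adjusted p = 0.00975).

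Cd14, the receptor that hands lipopolysaccharide to Tlr4 and Ly96 and is found on monocytes and macrophages, lies on chr18:36725067-36726798, minus strand. Its FPKM ranged from 0.760 to 3.70 in C, 2.63 to 6.89 in M and 1.61 to 5.22 in AA. The 3 groups overlapped, with means of 1.94 ± 1.13, 4.42 ± 1.66 and 3.05 ± 1.36 (SD, n = 5). Cd14 had a log2 fold change of 0.91 ± 0.33 in M vs. C (SE; limma, adjusted p = 0.2), −0.43 ± 0.33 in AA vs. M (adjusted p = 0.4) and 0.48 ± 0.30 in AA vs. C (adjusted p = 0.225).

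Csf1r, the receptor tyrosine kinase for Csf1 and Il34, went the other way from the rest of the list in both comparisons with C, though not in AA vs. M. It lies on chr18:61100598-61132149, plus strand. Csf1r had FPKM values of 9.52, 15.9, 7.61, 6.92 and 11.3 in C mice 1 to 5. M mice gave 2.43, 2.31, 3.74, 7.89 and 8.28, in the same order, and AA mice gave 3.55, 4.70, 0.900, 3.23 and 2.69. Every AA kidney lay below every C kidney, M mice 1 to 3 lay below the C range, and M mice 4 and 5 lay inside it. The group means were 10.3 ± 3.60, 4.93 ± 2.93 and 3.01 ± 1.39 in C, M and AA (SD, n = 5). Csf1r had a log2 fold change of −1.01 ± 0.37 in M vs. C (SE; limma, adjusted p = 0.205), −0.51 ± 0.40 in AA vs. M (adjusted p = 0.419) and −1.52 ± 0.31 in AA vs. C (adjusted p = 0.00376). With equal totals the M vs. C change was −1.96 and was called (limma, adjusted p = 0.0453), and without M mice 1 to 3 it was −0.26. The AA vs. C call held in all 22 alternatives run, at −2.61 to −1.27. The 3′ end of Csf1r overlaps Hmgxb3 on the opposite strand, which holds 14.6% of its 31-base words, and the library protocol names no step that marks the strand, so reads counted there cannot be told apart. The steps between FPKM values gave whole reads at a length of 4885 bases for Csf1r and 1572 for Cd14, shorter than their GENCODE M21 exon lengths of 5774 and 1732, so the gene models behind the values may differ and may leave out the overlap. For the other 8 members the lengths were equal. For Hmgxb3 the log2 fold change was −0.06 ± 0.23 in M vs. C (limma, adjusted p = 0.91) and 0.43 ± 0.22 in AA vs. C (adjusted p = 0.142). The proximal tubule markers, whose sums are given above, were also highest in C, and their part in the Csf1r values was not tested.

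The members did not rise and fall as a single block from kidney to kidney. Over the 15 libraries, the Pearson r of each member with the mean of the other 9 ran from 0.62 (Cd68) to 0.90 (Fcer1g) for 9 members and was −0.52 for Csf1r. The libraries come from 3 groups and share their scaling, so these r values include the differences between groups. C mouse 4 was the highest C kidney for 7 members (Lyz2, Adgre1, Cd14, Tyrobp, Fcer1g, Mrc1 and Laptm5) and the lowest for Csf1r. The summed FPKM of the 10 members was 85.1 in C mouse 4 and 19.1 to 30.4 in the other C kidneys, and Lyz2 supplied 58.3% of it there against 11.0% to 23.4% in the others. In M the sum was 276, 427, 410.1, 118 and 164 in mice 1 to 5, and in AA it was 142, 167, 122, 106 and 86.5. Lyz2 supplied 37.0% to 87.4% of it in M and 65.6% to 74.4% in AA. In C mouse 4 the sums for 14 pan-leukocyte genes (46.6), 12 complement C1q and resident macrophage genes (226.8) and 8 B cell markers (24.2) were also the highest of the C kidneys, where the others had at most 14.2, 61.1 and 3.35.

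M mice 1 to 3 carried much of the difference for some members and little for others. Leaving these mice out, the M vs. C change fell from 4.32 to 3.08 for Lyz2, from 1.59 to 0.68 for Adgre1 and from 1.50 to 0.71 for Mrc1. It moved from −1.01 to −0.26 for Csf1r. For Tyrobp (2.18 to 2.32), Fcer1g (2.27 to 2.11), Cd14 (0.91 to 0.85) and Laptm5 (1.43 to 1.37) it stayed within 0.2, and Trem2 went from 0.97 to 1.22. Without M mice 1 to 3 no member was called in M vs. C, where limma called 0 genes in all and 2489 had an unadjusted p under 0.05. Without M mice 4 and 5 it called 6 members higher (Lyz2, Cd68, Adgre1, Tyrobp, Fcer1g and Mrc1) and Csf1r lower (−1.52, adjusted p = 0.00753), where 4.09% of 17103 genes were called higher and 15.8% lower. The AA vs. M change turned above 0 without M mice 1 to 3 for Lyz2 (0.37), Adgre1 (0.23) and Mrc1 (0.01), and stayed below 0 for the other 7, among them Fcer1g (−1.42), Cd68 (−1.44) and Csf1r (−1.26). The AA vs. M call of Fcer1g was lost without these 3 mice (limma, adjusted p = 0.0975), where no member was called in AA vs. M and 2.39% of all genes were called higher and 6.23% lower. Without M mice 4 and 5 the AA vs. M test called 5 members lower (Lyz2, Cd68, Adgre1, Fcer1g and Mrc1), where 2.8% of 16761 genes were, and the change of Csf1r was 0.00. M mice 1 to 3 also stand apart in the number of genes detected, and the part of this in the members' values was not tested.

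**Figure D3:**
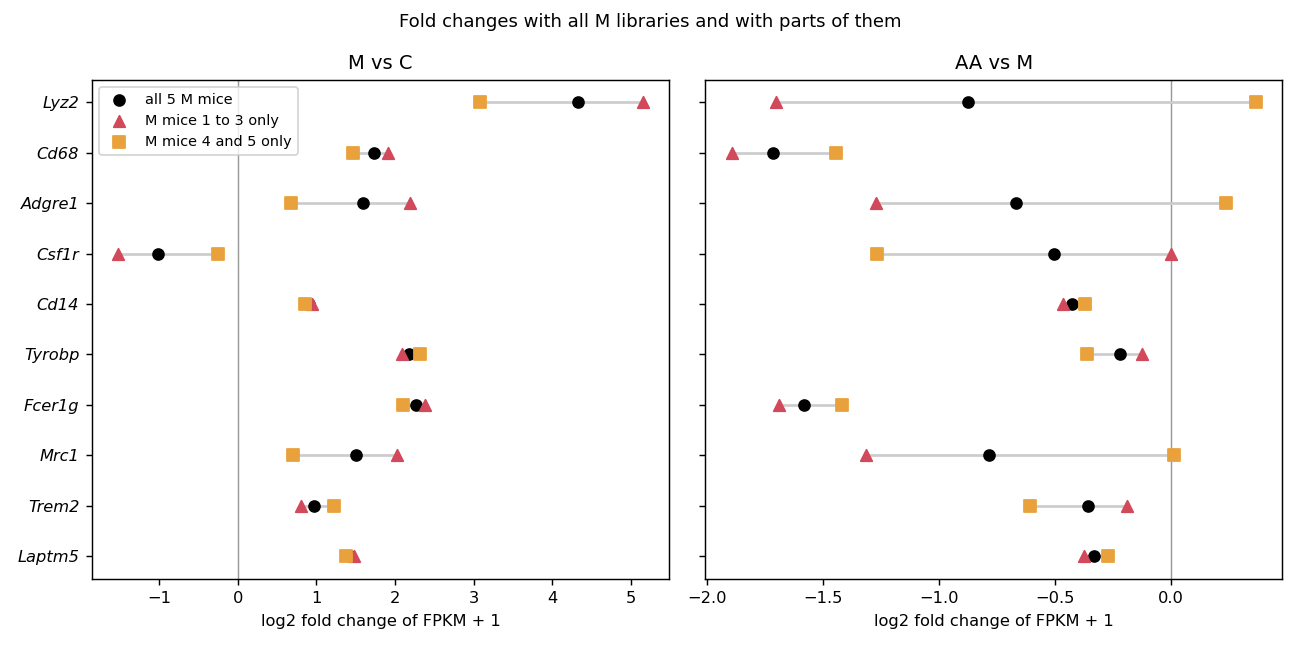
Points give each member's limma log2 fold change of FPKM + 1 in M vs. C (left) and AA vs. M (right), with all 5 M mice (circles), M mice 1 to 3 (triangles) or M mice 4 and 5 (squares) against all 5 mice of the other group. The marks lie together for Fcer1g, Tyrobp, Cd14 and Laptm5 and far apart for Lyz2, Adgre1, Mrc1 and Csf1r.

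A ratio of 2 genes within a library does not depend on how that library was scaled. Relative to Laptm5, taken as a leukocyte gene of middle level, Lyz2 had a median log2 ratio of 2.98 in C, 5.01 in M and 4.92 in AA. The ratio of Csf1r had medians of 4.51, 0.84 and 0.06, with C mouse 4 (0.38) alone among C kidneys inside the range of M (−1.52 to 1.32). That of Fcer1g had medians of 2.87, 3.04 and 1.07, and that of Tyrobp 0.81, 1.78 and 2.25. Cd68 had medians of 3.00, 1.74 and 0.55, and Cd14 of 1.00, −0.13 and −0.26. Adgre1, Mrc1 and Trem2 had medians below 0 in every group. The ranges of all 9 ratios overlapped between groups, as for Lyz2 (2.69 to 5.64 in C, 3.72 to 7.95 in M). C mouse 5 gave the highest ratio of the C kidneys for all 9 members, and its Laptm5 value rested on 8 reads. These ratios are a description, with no test.

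**Figure D4:**
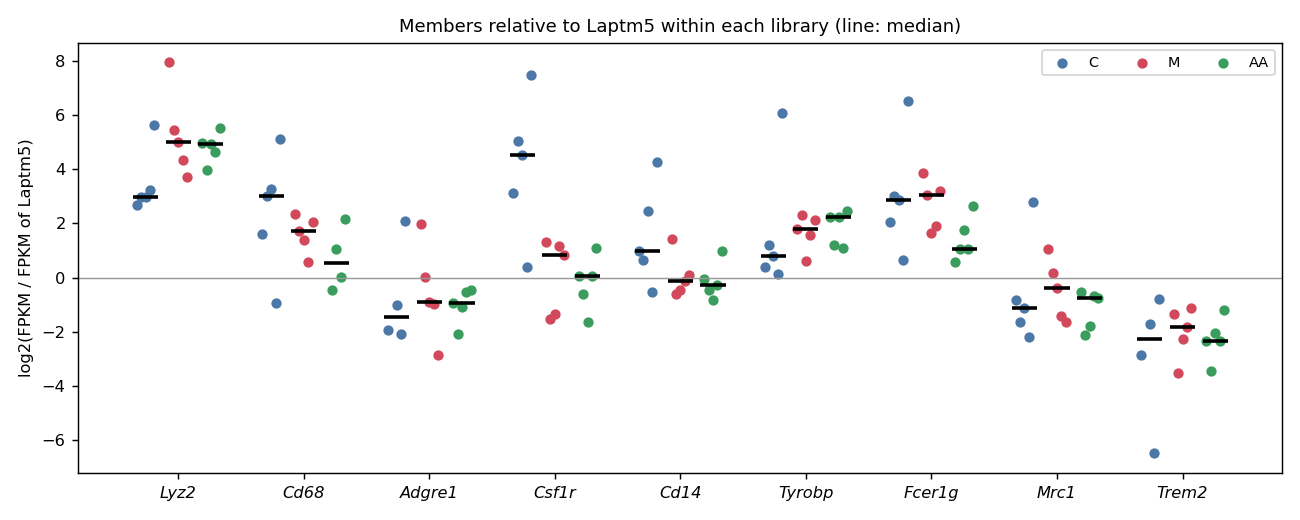
Each point is 1 kidney's log2 ratio of a member's FPKM to that of Laptm5, in C, M and AA, and lines give group medians. Libraries that listed the member at 0 (Cd68 in AA mouse 1, Adgre1 and Trem2 in C mouse 2) are left out. The Csf1r medians are 4.51, 0.84 and 0.06, and the Lyz2 medians 2.98, 5.01 and 4.92.

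Neither ligand of Csf1r was called in any comparison of all 5 mice per group. Csf1 FPKM was 1.71 to 2.90 in C, 0.816 in M mouse 1, 7.16 to 8.62 in M mice 2 to 5 and 2.61 to 3.14 in AA. Its AA vs. M change was −0.73 ± 0.43 (limma, adjusted p = 0.259). Without M mice 1 to 3 it was −1.23 and was called (limma, adjusted p = 0.0227), where 6.23% of all genes were called lower. Without M mice 4 and 5 it was −0.40 and not called. Of 11 genes tested on the list of the CSF1 and IL-34 axis and lineage factors, 0 were called in M vs. C or AA vs. M by limma, and in AA vs. C 3 were called higher and 1 lower. Of all genes, 10.2% were called higher in AA vs. C and 9.61% lower. The list's median log2 fold change was 0.29 in M vs. C, 0.26 in AA vs. M and 0.43 in AA vs. C. Csf1 had a log2 fold change of 0.93 ± 0.43 in M vs. C (SE; limma, adjusted p = 0.304) and Il34 one of −0.08 ± 0.53 (adjusted p = 0.946). For Spi1, which encodes PU.1, it was 1.11 ± 0.37 (limma, adjusted p = 0.16). The genes called in AA vs. C were Csf2ra, a chain of the GM-CSF receptor (−2.52 ± 0.30), and the factors Runx1 (1.29 ± 0.22) and Cebpb (1.20 ± 0.29).

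Receptors and kinases that work with Fcer1g and Tyrobp were fixed as a list beside them. With a median log2 fold change of 0.74, 5 of 16 tested were called higher and 0 lower in M vs. C (0.269% and 1.11% of all genes). They included Clec7a, the beta-glucan receptor Dectin-1 (2.67 ± 0.46; limma, adjusted p = 0.0216), Fcgr3, an Fc receptor that needs Fcer1g (2.23 ± 0.42), and Cd300c2 (1.99 ± 0.32). Called lower in AA vs. M were 2 of 15 (1.07% of all genes), Cd300c2 among them (−1.30 ± 0.36). In AA vs. C, 4 of 16 were called higher, among them Clec7a (2.41 ± 0.35), and 1 lower (10.2% and 9.61% of all genes). Hcst, the adaptor DAP10 next to Tyrobp on the chromosome, had a log2 fold change of 0.44 ± 0.39 in M vs. C (limma, adjusted p = 0.597), and Syk one of 0.27 ± 0.34 (adjusted p = 0.698).

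Among 8 partners of Cd14, Lbp, the plasma protein that brings lipopolysaccharide to it, was the only gene called. It was higher than in C both in M (1.36 ± 0.29; limma, adjusted p = 0.0404) and in AA (1.99 ± 0.27). Of all genes, 0.269% were called higher in M than in C, and 10.2% higher in AA than in C. Tlr4 had a log2 fold change of 0.58 ± 0.27 in M vs. C (limma, adjusted p = 0.317) and Ly96 one of −0.18 ± 0.51 (adjusted p = 0.869). None of the scavenger and endocytic receptors listed beside Mrc1 was called in any comparison (8 tested in M vs. C, 10 in AA vs. M, 11 in AA vs. C), and Cd163 had a log2 fold change of 0.32 ± 0.28 in M vs. C (limma, adjusted p = 0.591). Beside Cd68 and Laptm5, 3 of 15 lysosome and phagosome genes were called higher in M vs. C (0.269% of all genes): Ctss, the protease cathepsin S (3.30 ± 0.58), Mpeg1, the pore-forming perforin-2 (2.04 ± 0.41), and Gpnmb (1.68 ± 0.26). The AA vs. M test called 2 of the 15 lower (1.07% of all genes), the NADPH oxidase subunits Cyba (−1.09 ± 0.31) and Ncf1 (−1.08 ± 0.31). They differed in M vs. C, at −1.05 ± 0.39 for Cyba (limma, adjusted p = 0.211) and 1.22 ± 0.30 for Ncf1 (adjusted p = 0.0704). Cyba was also called lower in AA vs. C (−2.14 ± 0.33; limma, adjusted p = 0.000913). Of 13 lipid-handling genes known from Trem2-bearing macrophages, 1 was called higher in M vs. C (Gpnmb). In AA vs. M 2 were higher (Lpl, 1.23 ± 0.36, and Abcg1, 1.16 ± 0.35) and 1 lower (Lgals3, −1.17 ± 0.33), against 11.7% and 1.07% of all genes. Abcg1 was listed at 0 in M mice 1 and 2, and its groups overlapped. Without M mice 1 to 3 its change was 0.63 and not called (limma, adjusted p = 0.317). Apoe, a ligand of Trem2 also made by many other cells, had a log2 fold change of 1.85 ± 0.51 in M vs. C (limma, adjusted p = 0.0957) and was called in AA vs. C (1.83 ± 0.48).

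Complement C1q and resident macrophage genes gave 4 of 12 called higher in M vs. C, with a median log2 fold change of 1.23. They included C1qb (2.73 ± 0.50; limma, adjusted p = 0.0246), C1qc (2.42 ± 0.44) and Aif1, an actin-binding protein of microglia and macrophages (2.02 ± 0.34). For C1qa, which forms the same complex, it was 1.88 ± 0.47 (limma, adjusted p = 0.0732). In AA vs. M, C1qb alone was called lower (−1.36 ± 0.30), and in AA vs. C all 3 C1q genes were called higher. None of 9 monocyte genes tested was called in M vs. C, where 0.269% of all genes were called higher. In AA vs. C 3 of 9 were, where 10.2% of all genes were, among them Fn1 (1.56 ± 0.34) and Ccr2 (1.11 ± 0.33). Of 14 pan-leukocyte genes, Itgb2, the shared chain of the leukocyte integrins, was called higher in M vs. C (1.67 ± 0.36). Ptprc, the CD45 phosphatase, had a log2 fold change of 0.30 ± 0.28 in M vs. C (limma, adjusted p = 0.612), and the list's median was 1.11.

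Genes tied to macrophage activation were counted next. Of 11 classical activation genes tested, 1 was called higher in M vs. C, where 0.269% of all genes were (Socs3, a brake on cytokine signalling, 1.94 ± 0.25). In AA vs. M 2 were higher (Il12b, 1.27 ± 0.27, and Il6, 1.13 ± 0.31) and 1 lower (Il1b, −1.30 ± 0.40), against 11.7% and 1.07% of all genes. For Il12b and Il6 the value was 0 in each of M mice 1 to 3, libraries that lacked genes of low level, and without these mice their changes were 0.90 and 0.86 and not called, as was also so for Il1b (−0.66). None of 6 alternative activation genes tested was called in M vs. C. Arg1, an enzyme of that state, had a log2 fold change of 0.64 ± 0.27 (limma, adjusted p = 0.263), and Il10 was called higher in AA vs. M (1.70 ± 0.42). Il10 too was listed at 0 in M mice 1 to 3, AA mouse 4 (0.519) lay below M mouse 5 (0.807), and without M mice 1 to 3 the change was 1.40 and not called (limma, adjusted p = 0.153). Over the 19 lists, 16 of 182 genes tested (8.79%) were called higher in M vs. C and 8 (4.40%) lower, the latter all proximal tubule markers. Of all genes, 0.269% were called higher there and 1.11% lower. In AA vs. M 13 of 177 (7.34%) were called higher and 8 (4.52%) lower, where 11.7% of all genes were called higher and 1.07% lower.

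**Figure D5:**
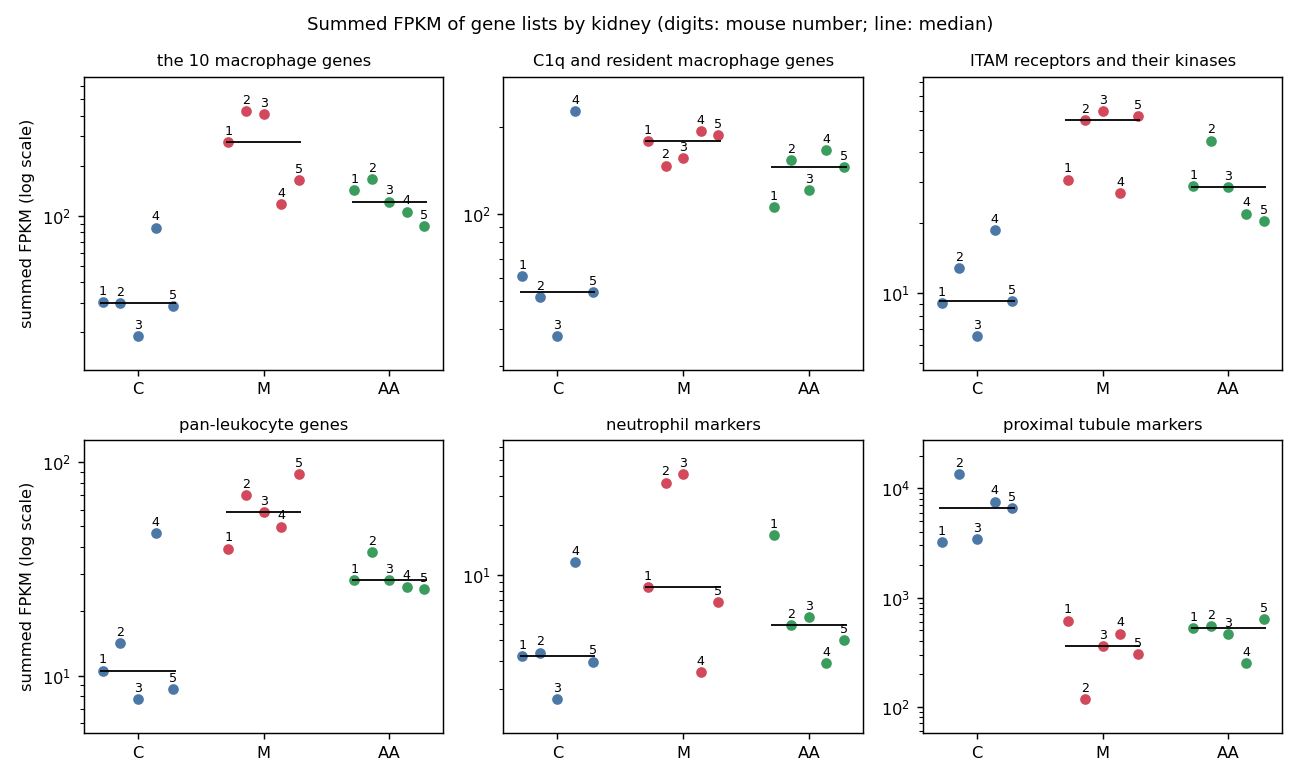
Panels plot the summed FPKM of the 10 macrophage genes and of 5 other lists in each kidney of C, M and AA, on a log scale. Digits are mouse numbers and lines are medians. C mouse 4 is the highest C kidney on the 4 immune lists of the panels and among the macrophage genes, and neutrophil markers stand highest in M mice 2 and 3 (36.5 and 41.0).

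Markers of other cells that hold some of these transcripts were measured beside them. The summed FPKM of 12 neutrophil markers was 1.74 to 12.0 in C, 36.5 and 41.0 in M mice 2 and 3, 2.55 to 8.43 in the other M kidneys and 2.89 to 17.5 in AA. None of the 5 tested was called in M vs. C. S100a8 had median FPKM of 0.542 in C, 5.52 in M and 1.60 in AA, Retnlg reached 0.336 in C and 8.07 in M and was listed at 0 in every AA kidney, and Mpo was listed at 0 in every C and M kidney. Other markers were highest in AA, with medians in C, M and AA of 0.0459, 0.243 and 1.39 for Elane and 0, 0 and 0.769 for Camp. Of 6 tested in AA vs. C, Elane was called higher (1.12 ± 0.26; limma, adjusted p = 0.00722) and S100a9 lower (−1.27 ± 0.41; adjusted p = 0.0308). Of all genes, 10.2% were called higher there and 9.61% lower. The sum for 8 mast cell and basophil markers was 0.620 to 2.21 in C, 0 to 3.28 in M and 1.56 to 4.08 in AA, and 0 of 3 tested were called in M vs. C. Fcer1a and Tpsb2 were listed at 0 in all 15 libraries and Cpa3 and Mcpt4 in every M and AA kidney, while Cma1 reached 2.03 in M and was listed at 0 in every C and AA kidney. Mcpt8 reached 1.34 in C, 2.02 in M and 2.48 in AA. The sum for 12 T and NK cell markers was 1.76 to 12.6 in C, 1.74 to 28.9 in M and 15.4 to 26.2 in AA. Of 8 tested in AA vs. M, 4 had a change above 0, and the median was −0.16. Medians of Cd4, Cd8a, Lck, Nkg7 and Trac were lower in AA than in M, as for Nkg7 (0.679 against 1.64). Called higher in AA vs. M were Cd3g (2.51 ± 0.50; limma, adjusted p = 0.00557), Ncr1 and Cd3e, where 11.7% of all genes were. Cd3g and Ncr1 were listed at 0 in M mice 1 to 3 and Cd3e at 0 to 0.108, against 2.72 and 4.35 for Cd3g in M mice 4 and 5. Without M mice 1 to 3 none of these genes was called (Cd3g 1.22; limma, adjusted p = 0.0674). That for 8 endothelial markers was 55.6 to 137 in C, 30.7 to 89.2 in M and 55.2 to 117 in AA, with 0 of 8 called in any comparison. That for 9 dendritic cell markers was 1.56 to 6.40 in C, 1.93 to 24.8 in M and 2.64 to 5.40 in AA, also with 0 called. Of 8 fibroblast markers, 7 were called higher in AA vs. C, led by Col1a1 (2.49 ± 0.27), where 10.2% of all genes were. The part of any of these cells in the members' values was not tested.

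Outside the list, the 5 protein-coding genes whose log2(FPKM + 1) was most like the mean of the members' standardized values over the 15 libraries were Ccl2 (r = 0.923), Cd44 (0.919), Vim (0.908), Cd52 (0.907) and Pla2g7 (0.904), among 14158 genes compared. Ccl2 is a chemokine that draws monocytes, Cd44 a hyaluronan receptor, Vim an intermediate filament protein of mesenchymal and blood cells, Cd52 a leukocyte surface peptide and Pla2g7 a phospholipase that macrophages secrete. These 5 were picked for following the members over the same 15 libraries, so their fold changes are not independent of the members' changes. Cd44 was called higher in M vs. C (1.81 ± 0.39; limma, adjusted p = 0.0402), as were Vim (2.35 ± 0.45) and Pla2g7 (1.32 ± 0.27). Ccl2 (2.39 ± 0.72; limma, adjusted p = 0.129) and Cd52 (1.93 ± 0.48; adjusted p = 0.069) were not. In AA vs. M, Vim alone of the 5 was called (−1.56 ± 0.45; limma, adjusted p = 0.0297).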

How the data were processed

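RNA-seq values of 15 mouse kidneys were analysed, 5 each of C, M and AA, grouped by their labels, which number separate mice. Per the labels, the authors used fastp, HISAT2 2.0.5 and featureCounts 1.5.0-p3 on mm10, and deposited 1 FPKM value per gene and kidney. FPKM values are no counts, so limma 3.58.1 in R 4.3.3 (lmFit, eBayes with an intensity trend) was run on log2(FPKM + 1) for genes above 0 in 5 or more of the 10 libraries of a comparison, without a block. Fold changes are on that scale, which understates changes of low genes. Adjusted p-values are Benjamini-Hochberg values over all genes tested.

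Between 96.7% and 98.4% of low values (up to 60 reads) lay within 0.02 of a whole number of reads. Even numbers made up 61.3% to 79.0% of them, as where both mates of a pair are counted. The size that divides the FPKM ran from 0.518 to 2.30 times a library's own recovered reads and stayed close to a median-of-ratios size factor, so the values appear to have been scaled between libraries before deposit. No interval was computed from the reads.

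Paralog sharing was the share of 31-base words found in transcripts of other genes (GENCODE M21). The fit was tested on simulated data. Python 3.11.15, numpy 2.4.6, pandas 2.3.3 and matplotlib 3.10.9 were used. IDs not found in GENCODE M21 numbered 37.

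The members and the 19 companion lists were chosen with earlier results of these data known. Genes named are the members, a fixed group (Lyz1, Csf1, Il34, Spi1, Tlr4, Ly96, Hcst, Syk, Ptprc, Cd163, Arg1, Ctss, C1qa, C1qb, C1qc), up to 3 called genes of each list and comparison by size of change, and the 5 genes most like the members. Some genes that this rule names are not reported here. Gapdh, Hmgxb3 and the single neutrophil and mast cell markers were chosen after their values were seen. Alternatives were another pseudocount, filters, scalings, fits and sets of libraries.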

Additional observations from a re-analysis of the deposited data

Results flagged for a closer look

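Each member was checked in each group of 5 kidneys for a kidney far from the rest, by Dixon's ratio of the gap to the range at a critical value of 0.71. Of 30 such checks 1 stood out, and chance gives about 1 in 20. Cd68 in AA mouse 1 was listed at an FPKM of 0, with a gap of 0.74 of the range on the log2(FPKM + 1) scale. Gapdh was listed at 0 in the same library, but it was at most 0.0967 in all 5 AA kidneys.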

How the results depend on the processing

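The tests called 2 members in M vs. C, 1 in AA vs. M and 3 in AA vs. C. Over all genes they called 57 higher and 234 lower of 21153, 2321 and 212 of 19798, and 2241 and 2105 of 21898. With no filter on low values the M vs. C number was 0, with a mean FPKM of at least 1 it was 4, and with library quality weights 1. The same fits called 11 higher and 22 lower of 31692 genes, 85 and 363 of 10347, and 54 and 134 of 21153. Quantile normalization, centring on the library median and 1 fit of all 15 libraries gave 5 for M vs. C and 2 for AA vs. M. Over all genes these called 84 higher and 232 lower, 132 and 207, and 139 and 647 in M vs. C. In AA vs. M they called 1584 higher and 695 lower, 1213 and 1600, and 2589 and 315. Equal totals gave 0 in AA vs. M and library quality weights 2, where 415 genes were called higher and 7 lower, and 1654 and 799. In AA vs. C a pseudocount of 0.1 gave 6, equal totals without mitochondrially encoded genes 5 and limma voom on recovered reads 7. Calls over all genes rose too, to 4027 higher and 3447 lower, 3578 and 3612, and 4348 and 3374. Leaving out 1 kidney at a time gave 0 to 4 for M vs. C, 0 to 2 for AA vs. M and 3 to 5 for AA vs. C. Over all genes these fits called 0 to 179 higher and 4 to 775 lower in M vs. C. They called 1636 to 2688 higher and 139 to 264 lower in AA vs. M, and 1779 to 2549 and 1684 to 2221 in AA vs. C. Without M mice 1 to 3 the number of members called was 0 in both comparisons that use M, and without M mice 4 and 5 it was 7 and 5.

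Directions turned for members that were not called. In AA vs. M this was so for Tyrobp without M mouse 2 (0.10; −0.65 to 0.10 over single kidneys left out), for Lyz2 (0.37), Adgre1 (0.23) and Mrc1 (0.010) without M mice 1 to 3, and for Csf1r without M mice 4 and 5 (0.00046). In AA vs. C, Cd68 turned with a pseudocount of 0.1 (−0.47), equal totals (−0.92), median centring (−0.13), equal totals without mitochondrially encoded genes (−0.58), voom (−0.76) and, over single kidneys left out, in some fits, with a range of −0.16 to 0.53. With equal totals Cd14 (−0.32) and Fcer1g (−0.27) turned too. The cause was not tested.

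Kidneys were not paired by mouse number, since the labels number separate mice. The r of the deviations of same-numbered kidneys ran from −0.08 to 0.22 in M vs. C. It ran from −0.07 to 0.05 in AA vs. M and from −0.13 to 0.16 in AA vs. C. A low r alone cannot show that kidneys are unpaired. With the number as a replicate block, 1 member was called for M vs. C and 2 for AA vs. M, and 14 and 13 genes of the companion lists. Over all genes this fit called 20 higher and 132 lower, and 2067 and 150.

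Companion list genes called numbered 24 for M vs. C and 21 for AA vs. M. They numbered 7 without a filter and 42 with all 15 libraries in M vs. C, and 0 with equal totals and 33 with median centring in AA vs. M. Over single kidneys left out they ran from 1 to 38 and from 7 to 27. Without M mice 1 to 3 they were 0 in M vs. C, and without M mice 4 and 5 they were 58 and 37.

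Over all genes, 57 were called higher and 234 lower in M vs. C. Without C mouse 5 these were 0 and 4, without M mouse 5 179 and 775, and without M mice 4 and 5 699 and 2705. In AA vs. M 91.6% of calls were higher, compared with 43.1% after median centring, 69.5% after quantile normalization and 27.8% without M mice 1 to 3. In AA vs. C 51.6% were higher, compared with 12.7% with equal totals and 40.1% after median centring. In M vs. C 19.6% were higher, compared with 1.93% with equal totals and 38.9% after median centring. The median log2 fold change of all genes in M vs. C was −0.12. It was −0.58 with equal totals and 0.24 after median centring, so this median moved with the scaling. Voom called 70 higher and 304 lower in M vs. C. In 1 or more kidneys the value rests on fewer than 10 reads for Trem2, Adgre1, Laptm5 and Cd68.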
